A study of Drosophila melanogaster with 58 samples.

Results

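The nicotinic acetylcholine receptor subunits of Drosophila melanogaster were followed in sorted mushroom body neurons, which store olfactory memories. The members were chosen by gene symbol, as the deposited table spells it, and not by any measured value. Of the 10 subunits named, nAChRalpha1 to nAChRalpha7, nAChRbeta1 and nAChRbeta2 had a row among the 12453 genes of the table, which makes 9 members. All 9 passed the filter on low counts that left 10072 genes for testing. nAChRbeta3 was not analysed here.

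Nicotinic receptors are pentamers of subunits around a cation channel that opens when acetylcholine binds. Acetylcholine is the main fast excitatory transmitter of the insect brain, and alpha subunits carry the paired cysteines of the binding loop that beta subunits lack. Neurons of the mushroom body, the Kenyon cells, receive acetylcholine from olfactory projection neurons through nicotinic receptors on their dendrites, and they release acetylcholine themselves. In flies nAChRalpha5, nAChRalpha6 and nAChRalpha7 are the relatives of the vertebrate alpha7 subunit, and nAChRalpha6 is the target of the insecticide spinosad.

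The study followed alpha-beta neurons, which send out their axons for the initial time in the pupa, and gamma neurons, which regrow axons after pruning. The 30 alpha-beta and 28 gamma libraries fell into 12 groups of cell type and stage, namely 18, 21, 24, 27 and 30 h after pupa formation and adults aged 3 to 5 days after eclosion. In the order of those stages, the groups had n = 5, 5, 6, 4, 5 and 5 alpha-beta libraries and n = 5, 5, 5, 3, 5 and 5 gamma libraries. In every group 1000 GFP-positive cells of dissociated brains were sorted for a library, flies were kept at 25 °C and sexes were taken at random. The genotype, and the driver that marked each cell type with GFP, are not given in the sources used here. RNA was copied from an oligo-dT primer and amplified by PCR before sequencing, so the values are whole-gene counts without molecular identifiers. Nothing in the labels says that libraries of a group came from separate pools of flies, so p-values measure the spread between these libraries, which may in part be technical.

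Library totals lay between 4403619 and 27242758 counts, so a gene at 0 in a library was below 0.11 to 0.681 CPM (gene counts scaled to a common library size). This floor is 3 counts of the total and covers counting error only. Levels are given as CPM scaled by TMM factors. All 9 listed Kenyon cell markers were in the table, and their summed level was 1126 to 2957 CPM in pupal and 2563 to 9150 CPM in adult libraries. Markers of other cells moved with age. The 7 listed markers of glutamatergic, GABAergic and monoaminergic neurons summed to 25.4 to 260 CPM in pupal and 574 to 3484 CPM in adult libraries, and among them ple, Tdc2 and SerT had a median of 0. From 30 h to adult, Gad1 means went from 9.23 to 1036 CPM in alpha-beta and from 35.5 to 1179 CPM in gamma neurons. Vmat means went from 11.7 to 261 and from 9.3 to 235 CPM, with an adult gamma median of 17.8 CPM. VGAT means went from 68.5 to 130 and from 113 to 205 CPM. VGlut means went from 18.5 to 40.8 and from 6.36 to 21 CPM. For VGAT and VGlut, adult and 30 h libraries overlapped in both cell types. The 7 glial markers summed to 217 to 1187 CPM in pupal and 506 to 3485 CPM in adult libraries. Within that list repo, the defining nuclear factor of glia, was at 0 in all 5 alpha-beta adult libraries and reached at most 13.6 CPM in gamma adults. Gs2, the glial glutamine synthetase, went the other way, with 1.91 to 69.6 CPM at 30 h and 355 to 2255 CPM in adults of alpha-beta neurons and 42 to 176 and 207 to 1826 CPM in gamma neurons. Group means of alrm, an astrocyte gene, were 9.98 and 50.1 CPM in alpha-beta and 54.8 and 143 CPM in gamma neurons at these stages. The 4 neuroblast and newborn neuron markers, of which dpn, ase and wor had a median of 0, reached 164 CPM in pupal alpha-beta libraries and 21.7 CPM in pupal gamma libraries. Photoreceptor markers summed to at most 65.4 CPM in any library, and the haemocyte marker found in the table reached at most 6.29 CPM.

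The summed nicotinic receptor RNA had its highest group means in adults, and its make-up differed from that in pupae. The summed level of the 9 subunits was 1547 ± 306 CPM in alpha-beta neurons at 18 h (SD, n = 5), 2748 ± 686 CPM at 30 h and 4539 ± 735 CPM in adults. In gamma neurons it was 1900 ± 376, 2653 ± 348 and 5472 ± 1996 CPM at the same stages (SD, n = 5 each). Adult libraries overlapped with 30 h libraries in alpha-beta neurons (3552 to 5248 against 2136 to 3781 CPM) and lay above them in gamma neurons (3391 to 8364 against 2271 to 3060 CPM). These sums are descriptions and were not tested. In sorted bulk cells, fewer cells with a transcript and less of it per cell cannot be told apart.

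To compare subunits with each other, levels were divided by the length of each gene's merged exons, which ran from 2387 bp for nAChRalpha2 to 11027 bp for nAChRalpha1. On this per-kilobase scale nAChRalpha2 was in front of the other subunits at 18 h, with 27.7% ± 5.98 of the summed subunit level in alpha-beta and 40.9% ± 15.2 in gamma neurons (SD, n = 5 each). In alpha-beta neurons at 18 h it was above nAChRbeta1, the next in order, in 3 of 5 libraries, which is within the spread. At 30 h it held 32% ± 8.95 in alpha-beta and 43.8% ± 6.46 in gamma neurons. Its alpha-beta level of 208 ± 21.8 CPM per kb at 30 h overlapped with that of nAChRbeta1, at 200 ± 104 CPM per kb, so this order is within the spread. In gamma neurons at 30 h the 296 ± 60.8 CPM per kb of nAChRalpha2 lay above every library's nAChRbeta1 level, which averaged 115 ± 17.2 CPM per kb.

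In adults nAChRbeta1 came to the front instead. Its share was 21.7% ± 3.2 in alpha-beta neurons at 18 h, 28% ± 8.85 at 30 h and 62.2% ± 3.59 in adults (SD, n = 5 each). In gamma neurons the share was 7.02% ± 2.48, 17.2% ± 3.15 and 44.5% ± 7.66 at these stages. Adult alpha-beta levels of nAChRbeta1, at 683 ± 131 CPM per kb, did not overlap with those of nAChRalpha6, the next in order at 97.9 ± 10.2. In adult gamma neurons nAChRbeta1, at 578 ± 221 CPM per kb, was above nAChRalpha2, at 237 ± 79.7, in 4 of 5 libraries. nAChRalpha2 held 6.09% ± 1.94 of the adult alpha-beta and 20.5% ± 11.3 of the adult gamma sum. With coding length in place of exon length, nAChRbeta1 still came first in both adult groups, with 47.3% ± 3.39 and 33% ± 3.49. In adult gamma neurons its 1100 ± 421 CPM per kb overlapped with nAChRalpha6, next in order at 996 ± 718. nAChRbeta1 was above it in 4 of 5 libraries, so this gamma order is within the spread. The pupal order changed, and nAChRalpha6 came first at 18 h with 21.9% ± 2.45 in alpha-beta and 26.5% ± 6.23 in gamma neurons. Its levels overlapped the next subunit's in both. At 30 h on coding length, nAChRalpha2 held 18.6% ± 5.52 in alpha-beta neurons, after nAChRbeta1 (22.1% ± 6.57) and nAChRalpha7 (20.6% ± 1.06). Neighbours in this order overlapped. In gamma neurons at 30 h nAChRalpha2 stayed first, with 26.2% ± 5.79.

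**Figure D1:**
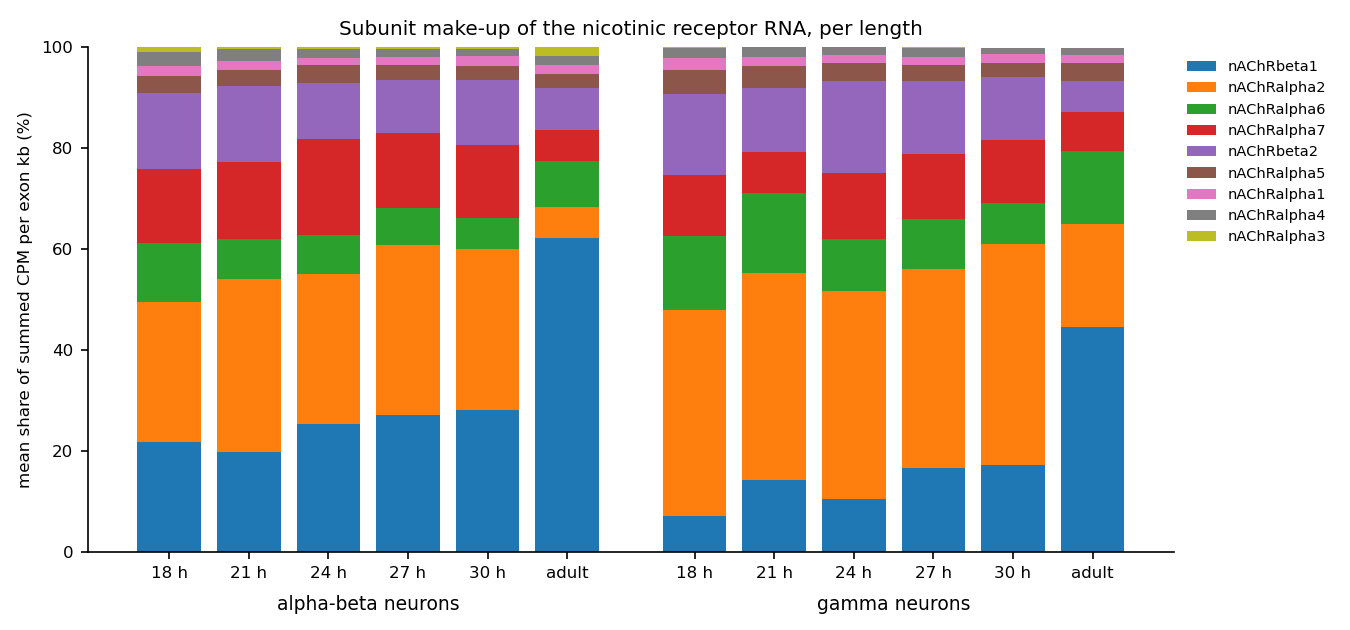
Stacked bars give each subunit's mean share of the summed subunit level per exon kilobase (vertical axis, percent) in the 12 groups (horizontal axis, stage within cell type). nAChRbeta1 holds 62.2% of the adult alpha-beta bar and 44.5% of the adult gamma bar, against 28% and 17.2% at 30 h, while the nAChRalpha2 part shrinks to 6.09% in adult alpha-beta neurons.

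nAChRbeta1, a non-alpha subunit that binds neonicotinoids together with alpha subunits, was called in 7 of the 10 comparisons, more than any other subunit. At 18 h the 5 alpha-beta libraries had 162, 196, 222, 237 and 293 CPM, and at 30 h they had 239, 467, 474, 762 and 1039 CPM. The 5 gamma libraries had 45.6, 81.5, 81.6, 99.5 and 120 CPM at 18 h, and 268, 308, 370, 378 and 384 CPM at 30 h. The gamma groups did not overlap, whereas in alpha-beta neurons the lowest 30 h library lay within the 18 h range.

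Between 18 and 30 h nAChRbeta1 rose in both cell types, by a log2 fold change of 1.42 in alpha-beta neurons (edgeR adjusted p = 0.0149, SE 0.29) and 1.99 in gamma neurons (edgeR adjusted p = 6.95e-05, SE 0.29). It was the only 1 of the 9 subunits called at an adjusted p under 0.05 in either comparison, where 0.0794% and 0.0397% of all genes tested were called (0.0695% and 0.0298% higher). The groups did not overlap for 2 members in alpha-beta neurons (nAChRalpha2 and nAChRbeta2) and for nAChRbeta1 in gamma neurons, against 2.21% and 1.2% of all genes. The median log2 change over the 9 members was 0.75 in alpha-beta and 0.17 in gamma neurons, beside -0.04 and 0.00 over all genes.

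The intermediate stages filled in the course. Alpha-beta levels of nAChRbeta1 averaged 257 ± 71.8 CPM at 21 h (SD, n = 5), 439 ± 92.1 at 24 h (n = 6) and 476 ± 77.8 at 27 h (n = 4). Gamma levels averaged 195 ± 69.0 CPM at 21 h (n = 5), 176 ± 23.6 at 24 h (n = 5) and 275 ± 63.1 at 27 h (n = 3). The slope over the 5 pupal stages was 0.125 log2 units per hour in alpha-beta neurons (edgeR adjusted p = 0.00139, SE 0.022), where nAChRbeta1 was the 1 member called and 0.208% of all genes were (0.149% higher). In gamma neurons it was again the 1 member called, beside 0.109% of all genes (0.0496% higher), with a slope of 0.149 log2 units per hour (edgeR adjusted p = 4.83e-05, SE 0.022). Both slopes were called in every fit that left out a library, 25 for alpha-beta and 23 for gamma neurons. The 30 h against 18 h call in alpha-beta neurons was lost in 5 of 10 such fits, namely without replicate 1, 2 or 3 at 18 h or without replicate 1 or 5 at 30 h. Its log2 fold change was 1.13 to 1.63 over the 10 fits. It was called in 6 of the 7 other settings, over adjusted p of 7.52e-05 to 0.116, and lost with only the groups compared.

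In adults nAChRbeta1 was higher again. The alpha-beta libraries had 1530, 1781, 2016, 2375 and 2450 CPM, and the gamma libraries had 896, 1331, 1629, 2217 and 2525 CPM. Every adult library lay above every 30 h library of its cell type. From 30 h to adult it rose by a log2 fold change of 1.77 in alpha-beta neurons (edgeR adjusted p = 8.85e-06, SE 0.29) and 2.33 in gamma neurons (edgeR adjusted p = 3.23e-08, SE 0.30). These comparisons share their 30 h libraries with those against 18 h. Both rises were called in all fits that left out a library, including those without the adult libraries of the highest other-neuron marker sums, where they were 1.75 and 2.21. The adult libraries kept there still had higher other-neuron marker sums than any pupal library, and the part of such cells was not tested.

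In pupae nAChRbeta1 was lower in gamma than in alpha-beta neurons. The mean was 209 CPM over the 23 pupal gamma libraries and 397 CPM over the 25 pupal alpha-beta libraries. With the 5 stages weighted equally the log2 fold change was -0.94 (edgeR adjusted p = 1.26e-06, SE 0.13). All gamma libraries lay below all alpha-beta libraries at 18, 24 and 27 h, while the groups overlapped at 21 and 30 h. At those 5 stages, groups of the 2 cell types did not overlap for 2.85%, 2.76%, 1.04%, 6.94% and 1.99% of all genes. The summed neuroblast and newborn neuron markers were also higher in alpha-beta than in gamma groups at these stages, and their part in this difference was not tested. In adults the cell types did not differ beyond their spread, with a log2 fold change of -0.24 (edgeR adjusted p = 0.781, SE 0.28). Ordered by group mean, the adult groups came first (2030 and 1720 CPM), then alpha-beta neurons at 30, 27 and 24 h (596, 476 and 439 CPM), and gamma neurons at 18 h last (85.7 CPM).

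**Figure D2:**
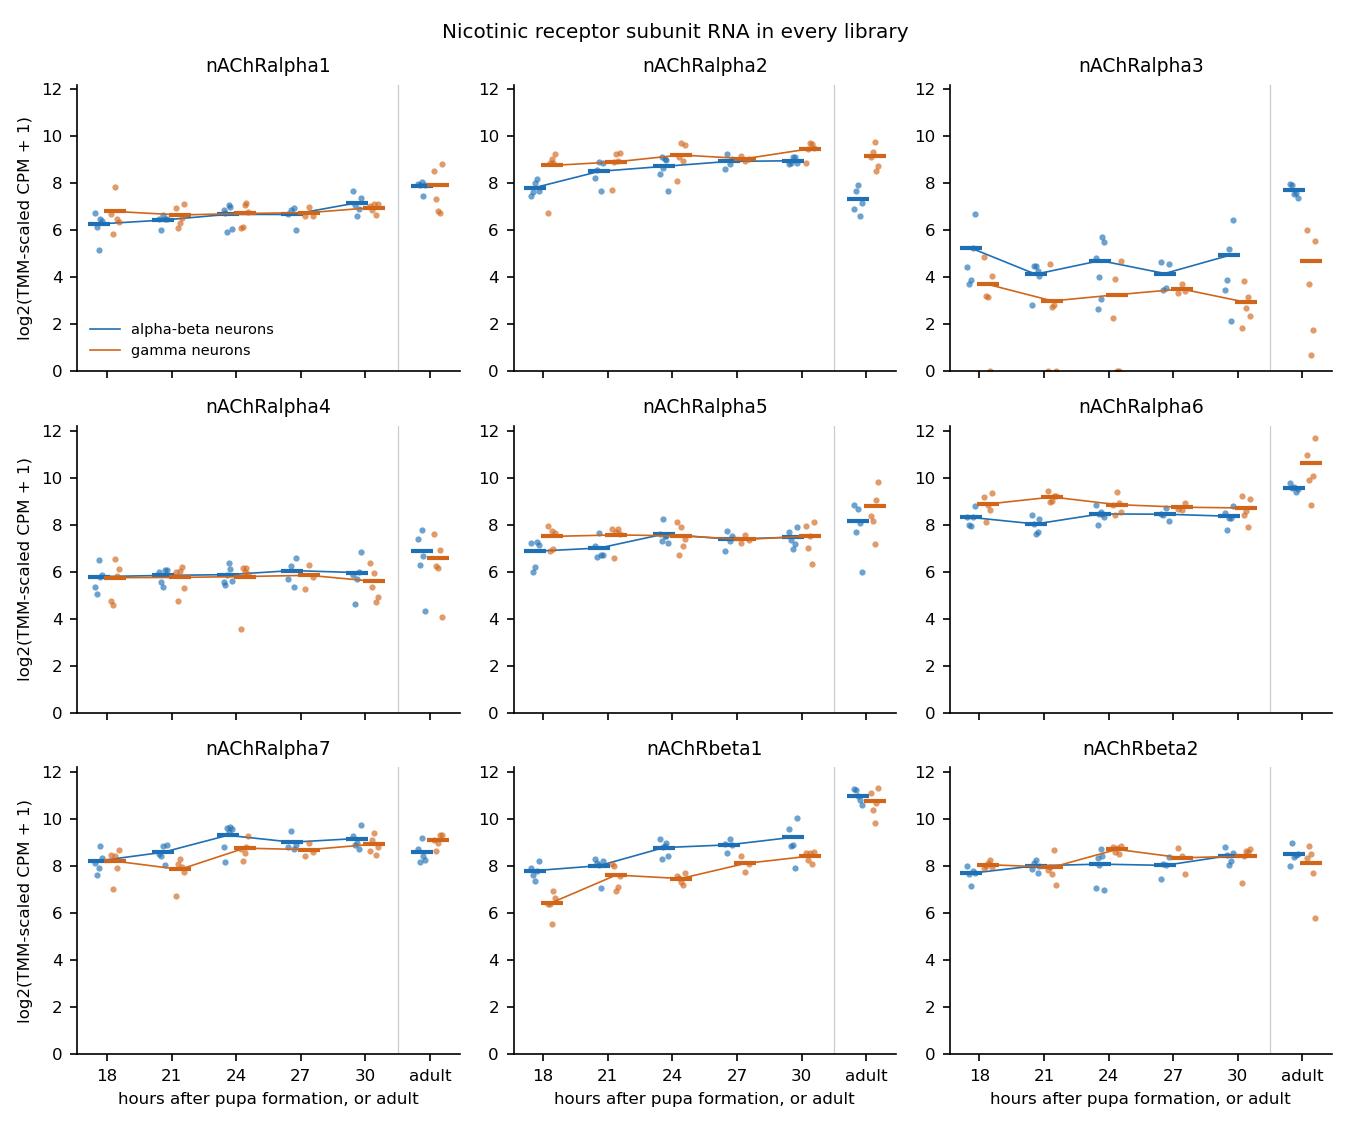
Each point is a library's level of a subunit, as log2(TMM-scaled CPM + 1) on the vertical axis, by stage on the horizontal axis, with alpha-beta libraries in blue and gamma libraries in orange. Thick bars mark the log2 of the group mean plus 1, and lines join the pupal groups. nAChRbeta1 climbs in both cell types to 1530 to 2450 CPM in alpha-beta and 896 to 2525 CPM in gamma adults, and the adult groups of nAChRalpha2 and nAChRalpha3 separate by cell type.

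nAChRalpha6 was steady in pupae and higher in adults. Pupal libraries spanned 192 to 458 CPM in alpha-beta neurons (median 317, n = 25) and 236 to 688 CPM in gamma neurons (median 479, n = 23). Adult alpha-beta libraries had 669, 723, 755, 776 and 884 CPM, all above the 30 h libraries at 215, 306, 310, 359 and 444 CPM. Adult gamma libraries were far apart, at 453, 966, 1077, 2009 and 3308 CPM, and overlapped with the 30 h libraries at 236, 335, 385, 544 and 586 CPM.

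From 30 h to adult nAChRalpha6 rose by a log2 fold change of 1.22 in alpha-beta neurons (edgeR adjusted p = 0.00266, SE 0.30) and 1.90 in gamma neurons (edgeR adjusted p = 5.79e-06, SE 0.30). The call held in all 10 fits without a library in each cell type. In gamma neurons the highest value came from adult replicate 5, the shallowest adult gamma library, and the rise was 1.44 without the shallowest adult library of each cell type. Between 18 and 30 h its log2 change was 0.05 (SE 0.29) in alpha-beta and -0.17 (SE 0.29) in gamma neurons, with an edgeR adjusted p of 1 in both.

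nAChRalpha6 was also higher in gamma than in alpha-beta neurons. Over all pupal libraries the means were 474 and 320 CPM, and with stages weighted equally the log2 fold change was 0.55 (edgeR adjusted p = 0.00596, SE 0.14), and at 21 h every gamma library was above every alpha-beta library. In adults the log2 fold change was 1.04 (edgeR adjusted p = 0.0318, SE 0.29). The adult call was lost in 5 of 10 fits, without alpha-beta replicate 2, 4 or 5 or gamma replicate 1 or 5, and the value was 0.55 without gamma replicate 5. It was also lost with limma-voom, with only the groups compared, without the shallowest adult library of each cell type and without the adult libraries of the highest other-neuron markers. The edgeR, DESeq2 and limma-voom adjusted p over the 9 other settings ran from 0.00495 to 0.747.

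nAChRalpha5, which can join nAChRalpha6 in receptors, had 144, 287, 332, 529 and 898 CPM in the adult gamma libraries against 80.0, 126, 184, 244 and 277 CPM at 30 h. These groups overlapped. It rose in gamma neurons by a log2 fold change of 1.27 (edgeR adjusted p = 0.0278, SE 0.39), and this call was lost in 5 of 10 fits, without gamma 30 h replicate 2, 3 or 4 or without adult replicate 4 or 5, with values of 0.80 to 1.49. It was called in 7 of 9 other settings, over adjusted p of 0.004 to 0.164. In alpha-beta neurons, with 62.3, 205, 270, 404 and 457 CPM in adults, the log2 change was 0.67 (edgeR adjusted p = 0.242, SE 0.39). Among pupal libraries nAChRalpha5 ranged from 63.2 to 297 CPM in alpha-beta and from 80.0 to 277 CPM in gamma neurons.

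nAChRalpha7, the other member of this branch and a subunit of the giant fibre escape circuit, had its highest pupal mean at 24 h in alpha-beta neurons, at 631 ± 213 CPM (SD, n = 6), and at 30 h in gamma neurons, at 486 ± 132 CPM (n = 5). The log2 change from 18 to 30 h was 0.95 (edgeR adjusted p = 0.401, SE 0.29) in alpha-beta and 0.72 (edgeR adjusted p = 0.349, SE 0.29) in gamma neurons, neither of which was called. DESeq2 and limma-voom called the alpha-beta change, over a range of adjusted p from 0.0465 to 0.456 in the 7 other settings. From 30 h to adult its log2 change was -0.56 (SE 0.29) in alpha-beta and 0.17 (SE 0.29) in gamma neurons, with edgeR adjusted p of 0.189 and 0.837.

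nAChRalpha2 was the member that fell. Adult alpha-beta libraries had 95.4, 118, 141, 205 and 239 CPM, below all of the 30 h libraries at 447, 461, 467, 546 and 558 CPM. Adult gamma libraries had 370, 425, 547, 637 and 851 CPM, a range that overlapped with the 30 h values of 470, 692, 724, 817 and 831 CPM. In alpha-beta neurons it fell by 1.64 on the log2 scale (edgeR adjusted p = 0.000213, SE 0.33), a call kept in all 10 fits without a library. In gamma neurons the log2 change was -0.32 (edgeR adjusted p = 0.594, SE 0.32).

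The difference between these changes was 1.31 on the log2 scale (gamma minus alpha-beta, SE 0.45) and was not called by edgeR (adjusted p = 0.142). It was called by DESeq2 (adjusted p = 0.0396) and with a term for the replicate number (edgeR adjusted p = 0.0496), and over the 9 other settings the adjusted p ran from 0.0396 to 0.359. Between adults, nAChRalpha2 was higher in gamma neurons by a log2 fold change of 1.83 (edgeR adjusted p = 0.000229, SE 0.33), with no overlap of libraries. This held in all 10 fits without a library, and the adjusted p was 2.17e-07 to 0.0559 over the 9 other settings, the highest with only the adult groups fitted. In pupae it was higher in gamma neurons by 0.49 (edgeR adjusted p = 0.0282, SE 0.15), with means of 549 and 395 CPM over all pupal libraries, and this call was lost without alpha-beta 27 h replicate 1 or gamma 27 h replicate 2.

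Pupal alpha-beta levels of nAChRalpha2 were 176, 195, 204, 254 and 291 CPM at 18 h, none of which reached the 30 h values. The log2 change between them was 1.15 (SE 0.32), which edgeR did not call in the fit with all groups (adjusted p = 0.268). It was called in 5 of the 7 other settings, over adjusted p of 0.0171 to 0.386. The slope over the pupal stages was 0.090 log2 units per hour (edgeR adjusted p = 0.127, SE 0.024).

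nAChRalpha3, an alpha subunit, was low in pupae and set the adult cell types apart in level. Adult alpha-beta libraries had 166, 185, 191, 242 and 247 CPM, whereas adult gamma libraries had 0.628, 2.36, 12, 45.9 and 64.3 CPM. No gamma adult library reached an alpha-beta adult library, and the fitted alpha-beta level was 8.24 times the gamma level. The 30 h alpha-beta libraries, at 3.36, 10, 13.8, 35.5 and 85.3 CPM, were all below the adult ones. In pupal gamma libraries the level ran from 0 to 28.2 CPM, with 5 libraries at 0.

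In spite of this separation edgeR did not call nAChRalpha3. Its log2 change from 30 h to adult in alpha-beta neurons was 2.80 (edgeR adjusted p = 0.12, SE 1.26), and the log2 difference between adults was -3.04 (edgeR adjusted p = 0.153, SE 1.27). The former was called in 3 of 9 other settings (DESeq2, limma-voom and the fit of the groups compared), over adjusted p of 0.000211 to 0.143. The latter was called in 2 of 9 (DESeq2 and limma-voom), over 0.0147 to 0.334. nAChRalpha3 shares 251 bp of exon with the opposite-strand gene CG1636, and it is not stated whether counting used the strand, so reads of these genes may not be told apart there. CG1636 had 62.9 to 227 CPM in adult alpha-beta and 1.23 to 161 CPM in adult gamma libraries, ranges that overlap.

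nAChRalpha1, nAChRalpha4 and nAChRbeta2 were not called by edgeR in any of the 10 comparisons. nAChRalpha1, a target of neonicotinoids, had pupal group means of 75.9 to 143 CPM and adult means of 234 ± 34.4 CPM in alpha-beta and 239 ± 159 CPM in gamma neurons (SD, n = 5 each). Its change from 30 h to adult was 0.95 in gamma neurons (log2, edgeR adjusted p = 0.0778, SE 0.36) and passed without adult replicate 3 or without adult replicate 4. nAChRalpha4, known from a fly sleep mutant, was at group means of 47.1 to 65.1 CPM in pupae and at 116 ± 77.8 and 94.5 ± 65.6 CPM in alpha-beta and gamma adults. nAChRbeta2 had group means of 206 to 417 CPM over all 12 groups, and adult gamma replicate 5 had its lowest level, 54.9 CPM.

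**Figure D3:**
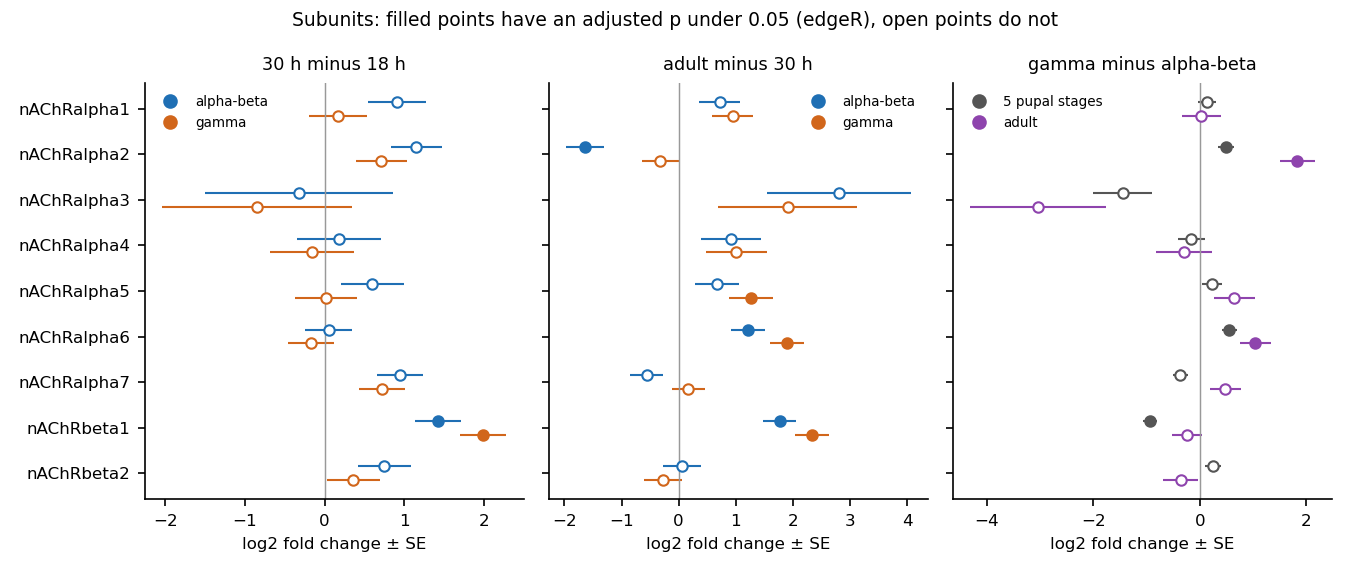
Points give the log2 fold change of each subunit (horizontal axis) with its SE as a bar, for 30 h minus 18 h, adult minus 30 h and gamma minus alpha-beta, and filled points have an edgeR adjusted p under 0.05. nAChRbeta1 is filled at 1.42 and 1.99 in the left panel and at 1.77 and 2.33 in the middle panel, and nAChRalpha2 is filled at -1.64 for alpha-beta adults and at 1.83 between adults.

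Counted over the receptor, 2 of 9 subunits rose and 1 fell from 30 h to adult in alpha-beta neurons, where 12.5% of all genes were called (4.69% higher and 7.8% lower). In gamma neurons 3 of 9 rose and 0 fell, where 10.2% of all genes were called (5.06% higher and 5.18% lower), and 4 members had an unadjusted p under 0.05 (all with positive changes). Libraries did not overlap for 4 members in alpha-beta neurons (nAChRalpha2, nAChRalpha3, nAChRalpha6 and nAChRbeta1) against 11.3% of all genes, and for 1 in gamma neurons (nAChRbeta1) against 8.04%. The members' median log2 change was 0.72 and 1.01, beside -0.16 and -0.07 over all genes. The marker sums of other transmitter neurons and of glia were higher in adults too, and their part in these counts was not tested. Without the adult library of each cell type with the highest other-neuron markers, a choice made after seeing the data, the counts were again 3 members for the alpha-beta and 3 for the gamma comparison. All adult libraries had other-neuron marker sums of 574 CPM or more, against at most 260 CPM in pupae. Leaving out 1 adult library per cell type therefore cannot decide the part of such cells.

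Between cell types, 2 members were higher and 1 was lower in gamma pupae, where 6.27% of all genes were called (4.1% lower and 2.17% higher). In adults 2 members were higher in gamma neurons, where 3.6% of all genes were called (2.11% higher and 1.49% lower), and libraries did not overlap for nAChRalpha2 and nAChRalpha3 against 2.04% of all genes. Medians over the members were 0.14 in pupae and 0.03 in adults, beside -0.04 and 0.00 over all genes. For the difference between cell types in the change from 18 to 30 h, edgeR called 0 members and 0.0% of all genes. An unadjusted edgeR p under 0.05 was reached there by 0 members, beside 763 of 10072 genes, and DESeq2 called 0 members. For the change from 30 h to adult edgeR called 0 members and 0.665% of all genes. There nAChRalpha2 had an unadjusted p under 0.05, as had 1200 of all 10072 genes. DESeq2 called 1 member there, nAChRalpha2, as did edgeR with a term for the replicate number. In the edgeR fit of all groups, no subunit's call in 1 cell type is shown to differ from the other. For nAChRalpha2 this depends on the setting, with a call in 2 of the 9 other settings.

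The authors' deposited table of comparisons, whose rule for a pass is not given in the sources used here, marked nAChRbeta1 and nAChRalpha6 in all 10 of its pupal against adult comparisons. In the authors' deposited table nAChRalpha1 passed in 9 of these 10, nAChRalpha5 in 7, nAChRalpha2 and nAChRalpha3 in 4 each, nAChRalpha7 in 3 and both nAChRalpha4 and nAChRbeta2 in 0. The authors' log2 values, pupal over adult, put nAChRalpha2 higher in alpha-beta pupae in its passes (1.17 to 1.60). For nAChRalpha7 they were 0.69 at 24 h in alpha-beta neurons, and -0.92 and -1.23 at 18 and 21 h in gamma neurons. All passes of the other subunits were higher in adults. Of its 6 comparisons between cell types, the authors' deposited table marked nAChRbeta1 in 3 (18, 24 and 30 h), nAChRalpha6 in 2 (21 h and adult), and nAChRalpha2 and nAChRalpha3 in 1 each (adult). In the authors' deposited table, 20.8%, 19.4%, 20.4%, 17.1% and 17.8% of all genes passed between the 5 pupal alpha-beta stages, in order of age, and adults, and 17.9%, 17.7%, 17.4%, 14.3% and 16.1% in gamma neurons. Between cell types the authors' deposited table marked 4.26%, 4.65%, 4.26%, 3.47% and 4.29% of genes at the pupal stages and 10.7% in adults.

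Other genes were read from an acetylcholine signalling list of 13, of which 12 were in the table. The list also holds bou, cold and twit, whose role in acetylcholine signalling was not examined here. From the list unc-50 was not analysed here and 11 were tested. From 30 h to adult 6 of these 11 rose and 0 fell in each cell type, namely ChAT (the synthesis enzyme), VAChT (the vesicular transporter), ChT (the choline transporter), Ace (acetylcholinesterase), mAChR-A (a muscarinic receptor) and qvr (a Ly6 protein that acts on potassium channels and nicotinic receptors). Of all genes tested, 4.69% were called higher in alpha-beta and 5.06% in gamma adults. The median log2 change over all 11 tested was 1.90 in alpha-beta and 1.93 in gamma neurons, beside -0.16 and -0.07 over all genes. The sums of other-neuron and glial markers were higher in adults too, and their part here was not tested. For ChAT the log2 rise was 3.54 (edgeR adjusted p = 2.63e-06, SE 0.55) in alpha-beta and 2.44 (edgeR adjusted p = 0.000749, SE 0.52) in gamma neurons. For qvr it was 1.90 (edgeR adjusted p = 2.29e-05, SE 0.33) and 2.04 (edgeR adjusted p = 8.39e-06, SE 0.33).

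Between 18 and 30 h edgeR called 0 of the 11 in either cell type, beside 0.0794% and 0.0397% of all genes, so this count is near the background. There, 0 in alpha-beta and 2 in gamma neurons (ChT and twit) had an unadjusted p under 0.05, beside 956 and 1144 of all 10072 genes. Ace was lower in gamma than in alpha-beta neurons, by -0.81 in pupae (log2, edgeR adjusted p = 0.0415, SE 0.26) and -2.15 in adults (edgeR adjusted p = 0.0195, SE 0.57). RIC-3, whose relative in Caenorhabditis elegans helps nicotinic receptors to assemble, had log2 changes of 0.61 (SE 0.65) and 0.31 (SE 0.64) from 30 h to adult, with edgeR adjusted p of 0.598 and 0.882. mAChR-B, a second muscarinic receptor, had log2 changes of 1.88 (SE 1.26) and 1.56 (SE 1.25), with edgeR adjusted p of 0.336 and 0.473. mAChR-C did not exceed 0.396 CPM in any library and was not among those tested.

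**Figure D4:**
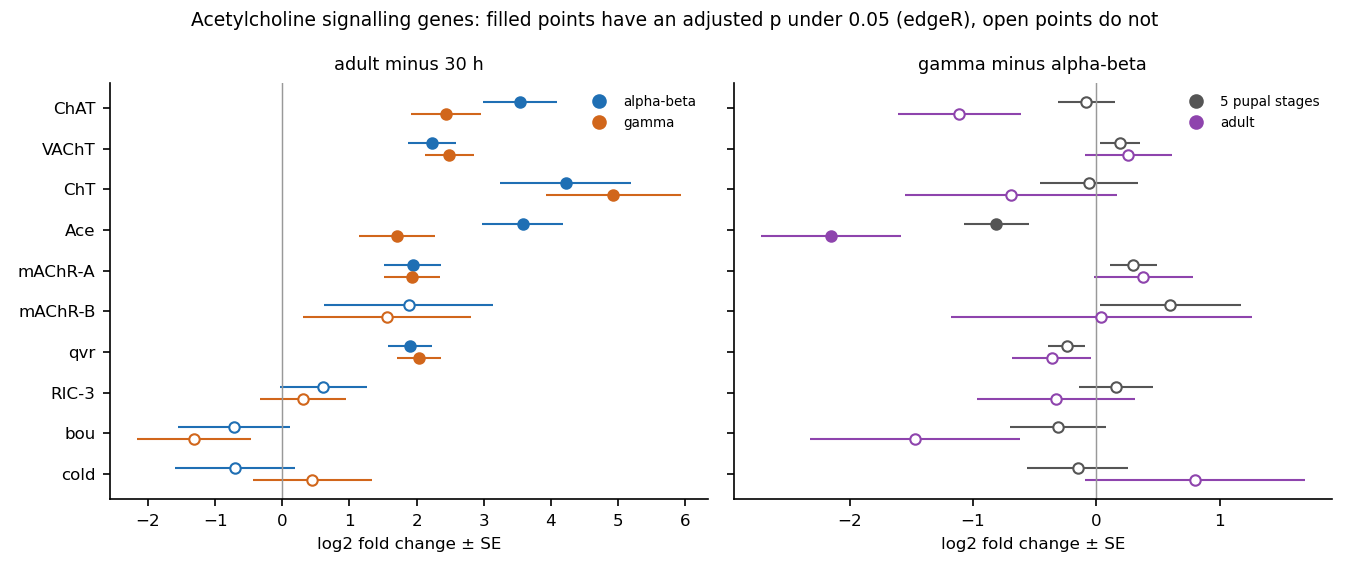
Points give the log2 fold change (horizontal axis) with its SE for 10 of the 11 tested genes of the acetylcholine signalling list. The gene twit, with a median of 0 CPM, is left out. Panels show adult minus 30 h and gamma minus alpha-beta, and filled points have an edgeR adjusted p under 0.05. ChAT, VAChT, ChT, Ace, mAChR-A and qvr are filled in both cell types on the left, and Ace is filled at -0.81 and -2.15 on the right.

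The subunits did not share a single course over the 12 groups. As a description over group means, which share depth and scaling, Pearson's r of log2 means was 0.93 between nAChRalpha5 and nAChRalpha6, 0.91 between nAChRalpha1 and nAChRalpha5, and 0.87 between nAChRalpha4 and nAChRbeta1. It was -0.84 between nAChRalpha2 and nAChRalpha3, whose adult levels stood in opposite order between the cell types. nAChRbeta2 and nAChRalpha7 had values of at most 0.54 with any other member.

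Among 4475 well-expressed genes (average log2 CPM from 5 up), the patterns nearest to nAChRbeta1 over the 12 group means were those of Tsp42Ej (r = 0.971) and CG6282 (r = 0.969). For nAChRalpha6 they were Trpm (r = 0.961) and Cngl (r = 0.958), for nAChRalpha2 CG31638 (r = 0.931) and Atat (r = 0.928), and for nAChRalpha3 norpA (r = 0.974) and ND-24 (r = 0.947). For nAChRalpha1 they were spab (r = 0.973) and nSyb (r = 0.968), for nAChRalpha5 CG13917 (r = 0.982) and Vha100-1 (r = 0.959), and for nAChRalpha4 TM4SF (r = 0.982) and qvr (r = 0.981). nAChRalpha7 came nearest to DIP1 (r = 0.909) and cos (r = 0.903), and nAChRbeta2 to KLHL18 (r = 0.923) and dind (r = 0.813).

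In the Ensembl annotation of the BDGP6 assembly, nAChRalpha1, nAChRalpha2 and nAChRbeta2 lie on chromosome arm 3R, with 1 protein-coding gene between the first pair and 0 between nAChRalpha2 and nAChRbeta2. From 18 to 30 h in alpha-beta neurons, the log2 changes of nAChRalpha2 and nAChRbeta2 were 1.15 and 0.75, and from 30 h to adult they were -1.64 and 0.06. In gamma neurons they were 0.71 and 0.36, then -0.32 and -0.28, and the differences between these genes were not tested. nAChRalpha3 and nAChRalpha7 are on X, nAChRalpha4 and nAChRbeta1 on 3L, and nAChRalpha5 and nAChRalpha6 on 2L. nAChRalpha4 shares 247 bp of exon with an opposite-strand non-coding gene, lncRNA:CR46475, which reached at most 11.1 CPM in the adult libraries. The longest annotated proteins of the 9 members have 518 (nAChRbeta2) to 836 (nAChRalpha5) residues.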

How the data were processed

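Per the file headers, the authors deposited a table that holds unnormalized counts of each gene in each library, with a normalized signal, log2 values and p-values beside them. Reads were aligned with STAR, per the submitters' processing notes, and the genome build, annotation, strand setting and counting program are not given in the sources used here. Only the deposited counts entered tests. The deposited normalized signal was not tested. The authors' deposited log2 fold changes and p-values were used only for the marks credited to them.

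Counts were fitted with edgeR 4.0.16 in R 4.3.3 (quasi-likelihood F-tests, two-sided, TMM factors of 0.743 to 1.08), with all 58 libraries in 12 groups and 1 fit. The filter filterByExpr (minimum count 10, minimum total 15) left 10072 genes, and p-values were adjusted by Benjamini-Hochberg over all of them within each of 10 comparisons, at a threshold of 0.05. The common biological coefficient of variation was 1.34. SEs were obtained from the size of each log2 change over the root of its F statistic. The pupal difference between cell types weights the 5 stages equally, and a difference of changes is the gamma change minus the alpha-beta change. 0 columns lacked a sample. The fit was also run on simulated data, with 1 fixed spread for all genes that was smaller than the common one given above. That run does not show how the fit performs at the spread of these data.

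The rule that picks members uses gene symbols and no measured value, but this gene family, the marker and acetylcholine lists and the comparisons were chosen with earlier results of these data known. The genes of nearest pattern were the 2 with the highest Pearson's r of log2 group means (pseudocount 1). Other settings were RLE size factors, no filter on low counts, DESeq2 1.42.0, limma-voom with sample weights (limma 3.58.1), a replicate or sheet set term, the compared groups alone, coding length, and each library left out in turn, with the gene filter and dispersion trend kept. A pair of settings that leave out adult libraries was chosen after seeing the data. Library totals of 4403619 to 27242758 set the floors given with the results. Gene lengths come from the Ensembl annotation, which may differ from the authors', so no coordinates are printed.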

Additional observations from a re-analysis of the deposited data

Results flagged for a closer look

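In 10 of 99 groups of a subunit and a stage, a single library stood apart from the rest by Dixon's test, which chance does in about 5% of groups. Libraries stood high for nAChRalpha1 in gamma neurons at 18 h (replicate 3, 225 CPM, others 56.1 to 103), nAChRalpha3 in alpha-beta neurons at 18 h (replicate 5, 101 CPM, others 12.1 to 37.1) and nAChRalpha3 in gamma neurons at 21 h (replicate 2, 23 CPM, others 0 to 6.16). They also stood high for nAChRalpha5 in alpha-beta neurons at 24 h (replicate 3, 297 CPM, others 148 to 193) and nAChRalpha7 in alpha-beta neurons at 27 h (replicate 3, 714 CPM, others 427 to 473).

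Libraries stood low for nAChRalpha1 in alpha-beta adults (replicate 4, 175.0 CPM, others 240.0 to 265), nAChRalpha2 in gamma neurons at 18 h (replicate 1, 106 CPM, others 462 to 599) and nAChRalpha4 in gamma neurons at 24 h (replicate 1, 10.7 CPM, others 59 to 69.7). They also stood low for nAChRalpha5 in gamma neurons at 21 h (replicate 2, 93.7 CPM, others 196 to 225) and nAChRbeta1 in alpha-beta neurons at 21 h (replicate 4, 133 CPM, others 264 to 313). None of these libraries, left out alone, changed the edgeR call of the same subunit in the comparisons tested.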

How the results depend on the processing

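Over the settings other than leaving out a library in turn, 668 of 702 results of single subunits kept their direction or lack of a call and their side of the threshold, 8 lost a call, 26 gained a call and 0 reversed. With DESeq2 the members called were 3 at 30 h against 18 h in alpha-beta neurons, 3 and 2 for the alpha-beta and gamma slopes, 1 for the difference between the adult changes and 5 between pupal cell types. It also called 4 in alpha-beta and 4 in gamma adults against 30 h and 3 between adults, with nAChRalpha3, nAChRalpha1 and nAChRalpha3 gained. limma-voom called 3 at 30 h against 18 h, 3 for the slope and 4 in adults against 30 h in alpha-beta neurons, and 4 between pupal cell types, the last pair with nAChRalpha3 gained. With only the groups compared, 2 were called for the alpha-beta slope and 0 between adults, and at 30 h against 18 h in alpha-beta neurons the 1 call was nAChRalpha2 and not nAChRbeta1 (edgeR adjusted p = 0.116). The sheet set term gave 2 at 30 h against 18 h and 2 for the slope in alpha-beta neurons. Each of the 2 settings without an adult library per cell type, chosen after seeing the data, gave 1 between adults. The share of all genes called is not given here for any setting but the main fit. Gains of members therefore cannot be told from a setting that calls more genes in general. The causes were not tested.

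The replicate block gave 2 members at 30 h against 18 h and 2 for the slope in alpha-beta neurons, each with nAChRalpha2 added, and 1 for the difference between the adult changes. Libraries with the same number had deviations correlated by 0.0148 to 0.0652 on average, and in none of 5 comparisons was every pair over 0.1. They were therefore not taken as pairs. These correlations run over all genes tested and cannot decide whether the number matters for a single subunit such as nAChRalpha2.

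With each library left out, the members called were 0 to 1 at 30 h against 18 h in alpha-beta neurons and 1 to 1 in gamma neurons, 1 to 1 for both slopes, 3 to 3 for alpha-beta and 2 to 4 for gamma adults against 30 h, 2 to 3 between pupal and 1 to 2 between adult cell types, and 0 to 0 for both differences of changes. Of the per-length shares, 23 of 36 moved by more than 1 SD with coding length. At 0 counts, nAChRalpha3 levels below the floors cannot be told from absence.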

Other observations

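Among the 5 adult gamma libraries, replicates 1 and 5 had the highest levels of 4 subunits. They had 369 and 449 CPM of nAChRalpha1, 64.3 and 45.9 CPM of nAChRalpha3, 2009 and 3308 CPM of nAChRalpha6 and 2217 and 2525 CPM of nAChRbeta1. Replicate 3 had the lowest nAChRalpha3, nAChRalpha5, nAChRalpha6 and nAChRbeta1 (0.628, 144, 453 and 896 CPM) and the highest nAChRalpha2 (851 CPM). Replicate 5, with the fewest counts of the 5 (7684536), had the highest nAChRalpha5 (898 CPM) and the lowest nAChRalpha4 and nAChRbeta2 (15.8 and 54.9 CPM).

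In gamma neurons the library numbered 1 had the lowest nAChRalpha2 of its group at 18, 21, 24 and 30 h (106, 208, 272 and 470 CPM). In alpha-beta neurons the library numbered 1 was likewise the lowest at 18, 27 and 30 h (176, 385 and 447 CPM), but not at 21 or 24 h. Among adults it was the lowest in neither cell type. The cause was not tested.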
